A study of Mus musculus with 18 samples.

Results

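Phox2a, Tbx20, Isl1, Chat, Slc18a3 and Slc5a7 mark cranial branchiomotor neurons and the acetylcholine machinery that motor neurons use. The 6 genes were listed by name, with no measured value in the rule, and were looked up in the deposited table of 37224 genes through the Ensembl gene ID paired with each symbol. 5 of the 6 matched 1 row each, and Slc18a3 matched none and was not analysed here. All 5 passed the filter on low counts in neural progenitors, among 16238 genes tested, and 4 passed it in neuromesodermal progenitors, among 15032 genes tested, where Chat did not. In neural progenitors Chat reached the filter only through the groups with Hoxb1, and Tbx20 only through the groups with SAG, where each was high. The place of Chat among the tested genes is therefore no support for a Hoxb1 difference, nor that of Tbx20 for a SAG difference.

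All cells were made in culture from embryonic stem cells of C57BL/6 mice, and RNA was sequenced in 18 libraries, 3 in each of 6 groups. Neural progenitors labelled as not expressing Hoxb1 were differentiated without SAG in 1 group and with SAG in another, and received no doxycycline (DOX) in either. Neural progenitors labelled as expressing Hoxb1 received DOX without SAG in 1 group and DOX with SAG in the other. SAG is a small-molecule agonist of Smoothened, the transducer of hedgehog signals. Neuromesodermal progenitors (NMPs), cells able to form spinal cord and paraxial mesoderm, were of wildtype or Hoxb1 null genotype and received neither agent. Hoxb1 in the neural progenitors cannot be told apart from DOX, and the promoter that drives it, the cell lines and clones, and whether a group's 3 libraries were separate cultures were not stated in the labels read here. P-values therefore measure the spread between these libraries, which may be technical.

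The labels number the SAG libraries 2533 to 2538, the other neural progenitor libraries 7390 to 7395 and the NMP libraries 8085 to 8090. Each of these sets holds both Hoxb1 states, so the Hoxb1 comparisons stay within a set, whereas the effect of SAG, and any change of the Hoxb1 effect by SAG, cannot be told apart from the set. Total counts per library were 13301476 to 14505711 without SAG, 22610407 to 26974315 with SAG and 16523276 to 21141058 in NMPs. Hoxb1 itself followed the labels. Its mean was 323 CPM with DOX and 591 CPM with DOX and SAG against 0.358 and 0.459 CPM without DOX, and 15.3 CPM in Hoxb1 null against 254 CPM in wildtype NMPs, where the deleted part of the gene is not given. CPM is the count scaled to the library's total, corrected with TMM factors taken over all 18 libraries.

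Branchiomotor neurons are born in the ventral hindbrain from progenitors patterned by hedgehog signals, and their axons leave through cranial nerves to muscles of the jaw, face and throat. Hoxb1 marks the fourth rhombomere, the segment that gives rise to the facial branchiomotor neurons, and is required for their identity in the mouse. These neurons release acetylcholine, for which choline is imported by the Slc5a7 transporter, acetylated by the Chat enzyme and loaded into vesicles by the Slc18a3 transporter. Phox2a, Tbx20 and Isl1 are transcription factors, and Isl1 is shared with somatic motor neurons, sensory neurons, heart progenitors and other cells.

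In mm10 coordinates of the deposited table, Phox2a lies at chr7:101818313-101823166 on the plus strand with 3 exons. The others lie on the minus strand, Tbx20 at chr9:24720812-24774303 with 9 exons, Isl1 at chr13:116298281-116309688 with 7, Chat at chr14:32408203-32465909 with 16 and Slc5a7 at chr17:54273594-54299034 with 9. Promoters came from RefSeq on GRCm38.p6 and were found for all 6 listed genes. The stretch upstream of the start is shown for the 4 members that rose with Hoxb1 in the presence of SAG, each read 5′ to 3′ on its gene's strand, with every E-box (CANNTG, the site of basic helix-loop-helix factors) in capitals. They are chr7:101818063-101818312 for Phox2a, chr9:24774304-24774553 for Tbx20, chr13:116309690-116309938 for Isl1 and chr14:32465990-32466159 for Chat, ending for Chat where annotated transcripts begin.
Phox2a: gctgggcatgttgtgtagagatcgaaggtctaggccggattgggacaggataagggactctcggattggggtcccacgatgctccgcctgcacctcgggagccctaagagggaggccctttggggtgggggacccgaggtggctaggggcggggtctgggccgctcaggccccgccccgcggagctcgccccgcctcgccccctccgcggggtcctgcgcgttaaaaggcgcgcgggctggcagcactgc
Tbx20: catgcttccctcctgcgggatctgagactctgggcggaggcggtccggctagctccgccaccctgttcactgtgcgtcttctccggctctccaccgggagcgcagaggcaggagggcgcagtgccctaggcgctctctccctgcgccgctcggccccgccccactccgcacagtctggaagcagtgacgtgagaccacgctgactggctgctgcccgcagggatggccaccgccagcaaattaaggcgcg
Isl1: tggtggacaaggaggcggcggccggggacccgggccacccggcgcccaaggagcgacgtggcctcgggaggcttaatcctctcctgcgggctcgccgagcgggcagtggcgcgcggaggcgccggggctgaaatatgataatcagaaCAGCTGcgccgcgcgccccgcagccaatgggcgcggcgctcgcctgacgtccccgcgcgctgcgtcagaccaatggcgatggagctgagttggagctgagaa
Chat: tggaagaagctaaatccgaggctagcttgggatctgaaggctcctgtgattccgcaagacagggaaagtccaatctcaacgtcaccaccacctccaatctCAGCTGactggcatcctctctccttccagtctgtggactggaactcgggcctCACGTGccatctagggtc
Phox2a and Tbx20 had no E-box in this window, Isl1 had 1 and Chat had 2, while 66.22% of 32851 promoters of 250 bases held at least 1. On either strand, none of the 6 listed genes had TGATNNAT (a composite of PBX and HOX sites), TAATTA (a homeodomain core), GACCACCCA (the GLI site) or TTCAGCACC (part of the REST site). Those letters were found in 7.683%, 4.84%, 0.2253% and 0.3014% of all promoters, respectively. The matches describe letters in 250 bases and say nothing of binding there or elsewhere.

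With SAG, the 3 transcription factors and Chat were higher in neural progenitors with Hoxb1 than without, and Slc5a7 did not pass the test. Without SAG, only Chat and Phox2a passed, Phox2a by a small amount. The share of all tested genes called at an edgeR adjusted p under 0.05 was 21.4% higher and 21.9% lower for Hoxb1 with SAG, and 24.1% higher and 22.1% lower for Hoxb1 without SAG. Leaving Chat aside for the reason given above, 3 of the other 4 members (Phox2a, Tbx20 and Isl1) were higher with SAG, 1 (Phox2a) was higher without SAG, and none was lower. Ranked by log2 change with SAG among 16238 genes, Tbx20 had the 24th largest rise, Phox2a the 34th and Isl1 the 371st. The summed level of 15 pan-neuronal genes was 1186 to 1215 CPM with SAG and 1971 to 2048 CPM with Hoxb1 and SAG. Much of that rise lay in the neurofilament genes Nefl (38.4 to 342.6 CPM) and Nefm (22.6 to 267.8 CPM). Of the 15 genes 8 rose and 5 fell, and the part of the sum in the members' changes was not tested. In bulk RNA, more cells of a type and more RNA per cell cannot be told apart.

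**Figure D1:**
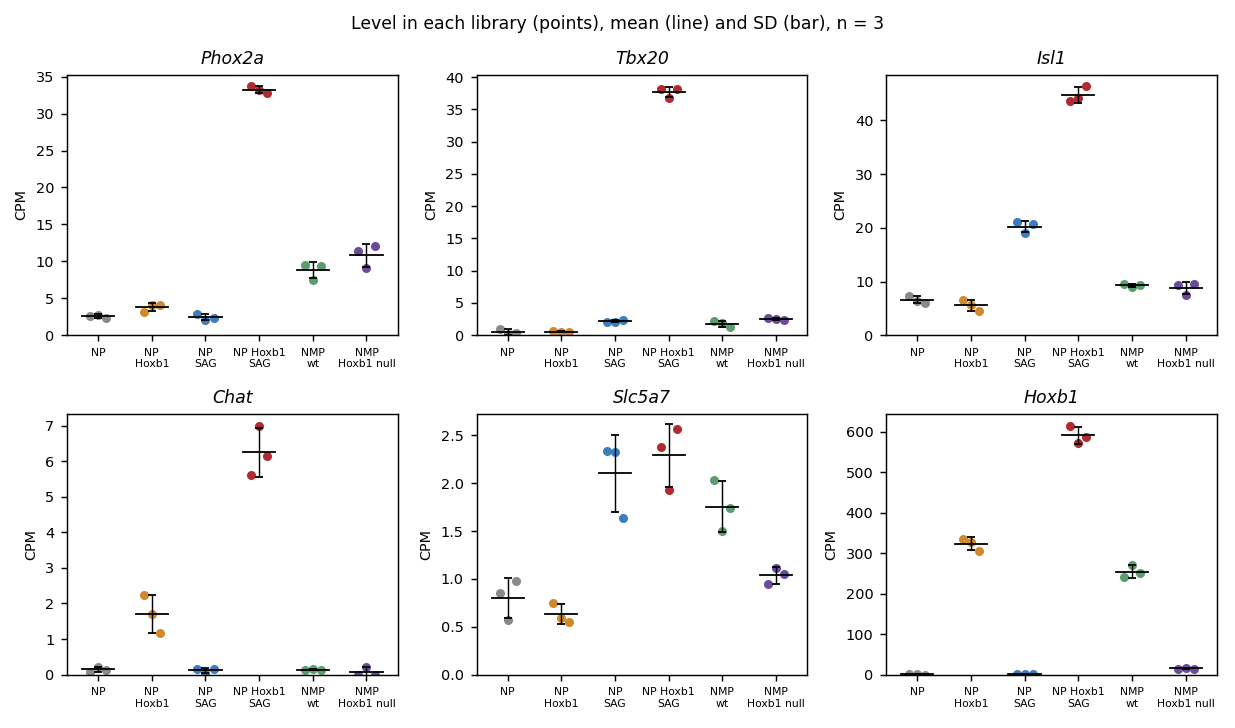
Level of each member and of Hoxb1 in every library, in CPM on a linear axis that starts at 0, for the 6 groups of 3 libraries. Points are libraries, lines are means and bars are SD. Phox2a and Tbx20 are high in neural progenitors (NP) with Hoxb1 and SAG alone among the neural progenitor groups, Chat also has a lower level with Hoxb1 without SAG, and Slc5a7 is higher in both SAG groups.

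Phox2a encodes a paired-like homeodomain factor of hindbrain motor and noradrenergic neurons. It stood at 2.84, 2.05 and 2.34 CPM in the 3 libraries with SAG and at 33.7, 33.2 and 32.8 CPM with Hoxb1 and SAG. The lowest library with Hoxb1 and SAG was far above the highest without Hoxb1, and the groups' SDs were 0.468 and 0.401 CPM. The log2 change was 3.80 (SE 0.0895, n = 3 libraries per group, edgeR adjusted p = 6.13e-32), a 13.9-fold rise. Without SAG the levels were 2.64, 2.80 and 2.31 CPM, and with Hoxb1 3.14, 4.08 and 4.08 CPM. These groups did not overlap either, but the rise was small, 0.55 on the log2 scale (SE 0.175, edgeR adjusted p = 0.00883). The 2 Hoxb1 effects differed by 3.25 (SE 0.221, edgeR adjusted p = 1.01e-15).

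Tbx20, a T-box factor expressed in hindbrain branchiomotor and visceral motor neurons and in the heart, rose with Hoxb1 in the presence of SAG. With SAG its libraries held 2.09, 2.12 and 2.38 CPM, and with Hoxb1 and SAG 38.2, 36.8 and 38.1 CPM. That is 17.2-fold, or 4.10 on the log2 scale (SE 0.095, edgeR adjusted p = 3.62e-32), with no overlap. Without SAG the gene was close to its counting limit in both groups, with 14, 3 and 4 counts in the libraries without Hoxb1 and 9, 6 and 7 counts in those with it. These overlapped, and the log2 change was 0.06 (95% interval -0.84 to 0.96, edgeR adjusted p = 0.926). The Hoxb1 effects with and without SAG differed by 4.04 (SE 0.523, edgeR adjusted p = 3.46e-08). The neural progenitor library 1 without Hoxb1 or SAG carried 14 of that group's 21 counts, and without it the difference was 3.06 (edgeR adjusted p = 0.000591).

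Isl1, a LIM-homeodomain factor of postmitotic motor neurons, was present in all neural progenitor groups. It stood at 21.0, 19.0 and 20.7 CPM with SAG and at 43.6, 44.1 and 46.4 CPM with Hoxb1 and SAG. Every library with Hoxb1 and SAG was above every library with SAG alone, and the rise of 1.15 on the log2 scale (SE 0.0581, edgeR adjusted p = 2.04e-20) was 2.23-fold, far below the folds of Phox2a and Tbx20. Without SAG the libraries held 7.27, 6.46 and 6.03 CPM and, with Hoxb1, 6.54, 5.71 and 4.43 CPM. These overlapped and the change of -0.23 (SE 0.133) did not pass the test (edgeR adjusted p = 0.152), though it did when the library 1 with Hoxb1 was left out (-0.37, edgeR adjusted p = 0.0402). The difference of the Hoxb1 effects was 1.39 (SE 0.146, edgeR adjusted p = 2.44e-10).

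Chat, the enzyme that makes acetylcholine, was almost absent without Hoxb1 and present with it in either SAG state. Libraries without Hoxb1 held 1, 3 and 2 counts without SAG and 4, 1 and 4 counts with SAG. With Hoxb1 the counts were 33, 23 and 17 without SAG (1.71 ± 0.537 CPM, SD, n = 3) and 132, 181 and 158 with SAG (6.25 ± 0.689 CPM). No library with Hoxb1 overlapped one without. The log2 change was 3.54 without SAG (SE 0.462, edgeR adjusted p = 2.23e-08) and 5.68 with SAG (SE 0.264, edgeR adjusted p = 1.37e-21), both resting on a handful of counts in the groups without Hoxb1. Chat entered the test only through the groups with Hoxb1, so both effects are given as values and not counted as support. The difference of these effects, 2.13 (95% interval 0.35 to 3.91), missed the threshold after adjustment (edgeR adjusted p = 0.0556). It passed with DESeq2 (adjusted p = 0.0329) and when any of 5 libraries was left out, namely library 1 of each of the 4 neural progenitor groups or library 3 with SAG (edgeR adjusted p = 0.0343 to 0.0482). Over all alternatives its adjusted p ran from 0.0329 to 0.272, and a larger Hoxb1 effect on Chat with SAG was not called.

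Slc5a7, the high-affinity choline transporter of cholinergic terminals, stayed low. It stood at 2.34, 2.33 and 1.64 CPM with SAG and at 2.38, 1.93 and 2.57 CPM with Hoxb1 and SAG. The groups overlapped, and the log2 change of 0.12 had a 95% interval of -0.23 to 0.47 (edgeR adjusted p = 0.608), which leaves out rises of the size seen for the other 4 members. Without SAG the libraries held 0.856, 0.574 and 0.981 CPM and, with Hoxb1, 0.750, 0.593 and 0.553 CPM, also overlapping (-0.33, 95% interval -1.09 to 0.42, edgeR adjusted p = 0.497). For the vesicular transporter Slc18a3, whose gene sits within the Chat locus on the same strand, no values are given.

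Over all tested genes the difference of the Hoxb1 effects was called higher for 16.8% and lower for 18.6%. Phox2a, Tbx20 and Isl1 were called higher, Tbx20 having been tested through the groups with SAG. The 2 Hoxb1 comparisons share no library but were taken from separate library sets. They also differ in the level of Hoxb1 itself, 323 CPM with DOX alone and 591 CPM with DOX and SAG.

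**Figure D2:**
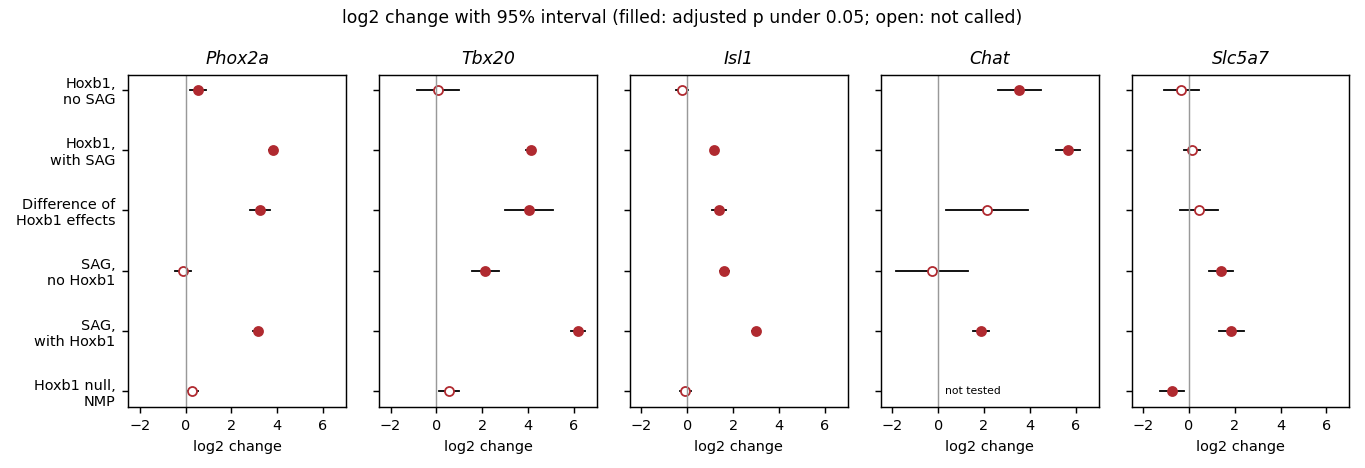
log2 change of each member in the 6 comparisons, with its 95% interval from the edgeR fit as a horizontal bar, which is hidden by the point where it is narrow. Filled points passed an adjusted p under 0.05 and open points did not. For Phox2a, Tbx20 and Isl1 the point for Hoxb1 with SAG lies to the right of the point for Hoxb1 without SAG and their difference is filled, while Slc5a7 is filled only for the SAG comparisons and for Hoxb1 null NMPs.

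The same libraries were then read by SAG, with the library set as an inseparable partner. Shares called were 36.5% higher and 36.3% lower for SAG without Hoxb1, and 36.4% higher and 35.8% lower for SAG with Hoxb1, so that calls in these comparisons covered most genes. Tbx20 was tested here only through the groups with SAG, so its calls are given as values and not counted. Of the other 4 members, 2 were higher with SAG without Hoxb1. Isl1 rose by 1.62 on the log2 scale (SE 0.0933, edgeR adjusted p = 6.02e-19), Slc5a7 by 1.39 (SE 0.257, edgeR adjusted p = 7.64e-06). The change of Tbx20 was 2.13 (SE 0.286, edgeR adjusted p = 1.60e-08), and 3.11 without library 1 of the untreated group. Phox2a (-0.11, edgeR adjusted p = 0.58) and Chat (-0.27, edgeR adjusted p = 0.766) overlapped between the groups and were not called. With Hoxb1, the same other 4 were all higher with SAG, Phox2a by 3.14 (SE 0.0962, edgeR adjusted p = 2.23e-28), Isl1 by 3.01 (SE 0.0858, edgeR adjusted p = 1.96e-29), Chat by 1.87 (SE 0.179, edgeR adjusted p = 3.35e-12) and Slc5a7 by 1.84 (SE 0.268, edgeR adjusted p = 9.23e-08). The change of Tbx20 was 6.17 (SE 0.151, edgeR adjusted p = 8.65e-32), where the libraries with Hoxb1 alone held 9, 6 and 7 counts. This comparison shares its libraries with those of Hoxb1 and is not a separate line of evidence.

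The levels of the members did not follow 1 pattern. Phox2a and Tbx20 were low in every neural progenitor group but the one with Hoxb1 and SAG, with a small rise of Phox2a under Hoxb1 alone. Isl1 rose with SAG and again with Hoxb1 and SAG. Chat was higher with Hoxb1 in either SAG state, and Slc5a7 was higher with SAG in either Hoxb1 state. Across the 12 neural progenitor libraries, Pearson's r of log2 CPM was 0.946 between Tbx20 and Isl1, 0.926 between Isl1 and Slc5a7, 0.885 between Phox2a and Tbx20 and 0.874 between Phox2a and Chat, but 0.170 between Chat and Slc5a7. These are descriptions over 4 groups of libraries that share depth and library set within SAG state.

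Compared per kilobase of summed exon length, which allows genes to be set side by side, the order in neural progenitors with Hoxb1 and SAG was Phox2a at 16.2 ± 0.228 CPM per kb (SD, n = 3), Isl1 at 11.3 ± 0.377, Tbx20 at 5.48 ± 0.113, Chat at 2.22 ± 0.245 and Slc5a7 at 0.443 ± 0.0635. The transcription factors thus stood above the enzyme, and the enzyme above the choline transporter. With SAG alone the order was Isl1 at 5.11 ± 0.266, Phox2a at 1.18 ± 0.196, Slc5a7 at 0.407 ± 0.0776, Tbx20 at 0.319 ± 0.023 and Chat at 0.0434 ± 0.0269 CPM per kb. Chat moved from the bottom of the 5 to the fourth place and Phox2a to the top.

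NMPs are set beside neural progenitors only as a description, because cell type goes with library set. Over the 6 groups, Phox2a was highest in neural progenitors with Hoxb1 and SAG, then in Hoxb1 null NMPs (10.8 ± 1.56 CPM) and wildtype NMPs (8.80 ± 1.09 CPM), whose libraries overlapped. The neural progenitors with Hoxb1 alone came next, above the untreated and the SAG group, which overlapped. Tbx20 after its highest group was ordered as Hoxb1 null NMPs, SAG, wildtype NMPs, Hoxb1 and untreated, where SAG overlapped wildtype NMPs and Hoxb1 overlapped untreated. For Isl1 the order was Hoxb1 with SAG, SAG, wildtype NMPs, Hoxb1 null NMPs, untreated and Hoxb1, with overlap between the NMP groups and between the last pair. Chat below its Hoxb1 groups, and Slc5a7 in its upper 3 groups (Hoxb1 with SAG, SAG and wildtype NMPs), showed neighbours that all overlapped.

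In the fit of the 6 NMP libraries, Slc5a7 was lower in Hoxb1 null cells and no transcription factor was called, though the calls for Phox2a, Tbx20 and Slc5a7 changed between alternatives. Over all tested genes 14.9% were called higher and 13.9% lower in Hoxb1 null NMPs, and 1 of 4 tested members was called. Slc5a7 fell from 2.03, 1.497 and 1.74 CPM to 0.945, 1.12 and 1.05 CPM, with no overlap, by 0.74 on the log2 scale (SE 0.244, edgeR adjusted p = 0.0255). DESeq2 did not call it (adjusted p = 0.125), nor did edgeR without wildtype library 1 (adjusted p = 0.105), wildtype library 3 (0.0663) or Hoxb1 null library 1 (0.0721). Phox2a stood at 9.49, 7.54 and 9.35 CPM in wildtype and 11.3, 9.03 and 12.02 CPM in Hoxb1 null NMPs, overlapping (0.30, 95% interval 0.05 to 0.55, edgeR adjusted p = 0.0684). It was called higher in 4 of 12 alternatives, namely without Hoxb1 null library 2 (0.42, edgeR adjusted p = 0.0181), without a filter on low counts (0.0498), with a replicate block (0.0354) and with all 18 libraries in 1 fit (0.0297), and its adjusted p reached 0.359. Tbx20, at 2.23, 1.86 and 1.22 against 2.71, 2.57 and 2.40 CPM, did not overlap but missed the threshold (0.54, 95% interval 0.10 to 0.98, edgeR adjusted p = 0.0605), and was called in 2 of 12, without wildtype library 1 (0.71, edgeR adjusted p = 0.0339) and with all 18 libraries in 1 fit (0.0443). Isl1, at 9.49, 8.93 and 9.41 against 9.39, 7.42 and 9.55 CPM, overlapped (-0.08, 95% interval -0.32 to 0.15, edgeR adjusted p = 0.617). Chat had 2, 3 and 2 counts in wildtype and 0, 4 and 0 in Hoxb1 null NMPs and was not tested.

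The direction of the NMP changes can be set beside that of neural progenitors only as values, since the cells and the way Hoxb1 was altered differ. Hoxb2, the neighbouring Hox gene, fell by 3.33 on the log2 scale in Hoxb1 null NMPs (SE 0.0819, edgeR adjusted p = 7.31e-19), from 78.4 to 7.79 CPM, and rose with Hoxb1 in neural progenitors. Phox2a and Tbx20, which rose with Hoxb1 and SAG, had no called fall in Hoxb1 null NMPs.

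A list of 19 other genes of the branchiomotor and visceral motor lineage was measured in full. Over all tested genes, Hoxb1 with SAG was called higher for 21.4% and lower for 21.9%, and Hoxb1 without SAG for 24.1% and 22.1%. The counts of this list and of those below are to be read beside the shares given for each comparison. With SAG, Hoxb1 was accompanied by 12 rises and 4 falls among the 19 (median 0.32 on the log2 scale, beside 0.0012 over all genes), and without SAG by 10 rises and 5 falls (median 0.23, beside 0.0031). Hoxb2, another Hox gene of the hindbrain, rose by 4.98 with SAG (2.32 to 73.0 CPM, SE 0.0724, edgeR adjusted p = 1.39e-39) and by 6.50 without (0.735 to 66.8 CPM, SE 0.113). Neurod4, a proneural factor, rose by 3.52 with SAG (2.20 to 25.4 CPM, SE 0.0908) and by 2.23 without (4.33 to 20.2 CPM, SE 0.103). The 4 genes that fell with SAG were named after their values were seen. They were Cdh8 (-1.66, 17.4 to 5.5 CPM), Nkx6-2 (-0.83), Nkx2-2 (-0.65, 85.7 to 54.3 CPM) and Gata2 (-0.26). Cntn2, an axonal adhesion molecule of early motor neurons, is the listed gene whose Hoxb1 effect differed most by SAG: its mean was 18.8 CPM with SAG and 188.5 CPM with Hoxb1 and SAG, but 104.2 and 60.8 CPM in the groups without SAG (difference 4.09, SE 0.0636, edgeR adjusted p = 9.54e-38).

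The difference of the Hoxb1 effects was called higher for 10 of the 19 genes and lower for 5 (median 0.18), among them Hoxb2 at -1.52 (SE 0.235). With SAG and no Hoxb1, 11 were higher and 7 lower, led by the ventral progenitor factors Nkx2-9 (4.84, 0.924 to 26.7 CPM, SE 0.138) and Nkx2-2 (3.42, 8.03 to 85.7 CPM, SE 0.0697), while Cntn2 fell by 2.46. With both, 14 were higher and 5 lower than with Hoxb1 alone, including Nkx6-1, a factor of ventral motor progenitors (2.76, 49.7 to 337.3 CPM, SE 0.0386). In Hoxb1 null NMPs 9 of 15 tested genes were higher and 4 lower. The shares over all tested genes were 14.9% higher and 13.9% lower in Hoxb1 null NMPs. They were 36.5% and 36.3% for SAG without Hoxb1, and 36.4% and 35.8% for SAG with Hoxb1. The summed level of the 19 genes was 946.8 to 957.6 CPM with SAG and 1566 to 1612 CPM with Hoxb1 and SAG, against 973.2 to 1006 and 1088 to 1135 CPM without SAG. Much of the rise with SAG lay in Nkx6-1 (77.7 to 337.3 CPM) and Cntn2 (18.8 to 188.5 CPM), so the sum does not describe the list as a whole.

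A list of 19 other genes of the cholinergic synapse and choline handling, of which 18 were tested, included acetylcholinesterase, acetylcholine receptors and choline kinases. With SAG, 9 were higher with Hoxb1 and 3 lower (median 0.22), and without SAG 11 were higher and 3 lower (median 0.24). The largest rises with SAG were those of the ganglionic nicotinic receptor subunits Chrna3 (3.20, 0.675 to 6.10 CPM, SE 0.18, edgeR adjusted p = 8.74e-19), Chrnb4 (1.99, 2.02 to 7.98 CPM, SE 0.12) and Chrna5 (1.91, 0.679 to 2.58 CPM, SE 0.209). These 3 genes sit in 1 cluster in the genome. Without SAG the largest were Chrna7 (1.62, 4.004 to 12.3 CPM, SE 0.122), Chrna5 (1.49, SE 0.189) and Chrna3 (1.49, SE 0.179). The difference of the effects was positive for Chrna3 (1.71, SE 0.287, edgeR adjusted p = 5.91e-06) and negative for Chrna7 (-1.54, SE 0.154) and Chrna4 (-1.37, SE 0.0775), with 5 of 18 higher and 3 lower (median 0.04). Under SAG without Hoxb1, 4 were higher and 10 lower, and in Hoxb1 null NMPs 3 of 14 were higher and 1 lower, Chrm3 rising by 1.69 and Chrna3 by 1.02. The summed level of the list was 551.7 to 566.3 CPM with SAG and 592.5 to 600.5 CPM with Hoxb1 and SAG.

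**Figure D3:**
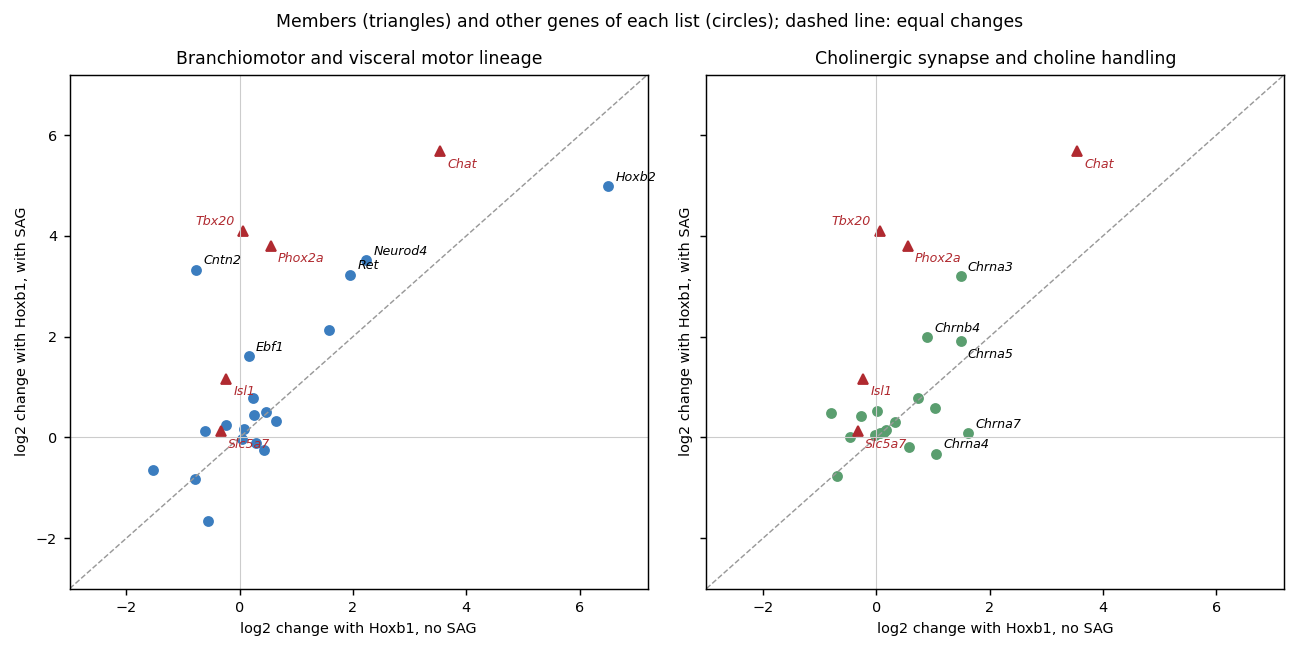
log2 change with Hoxb1 with SAG (vertical axis) against that without SAG (horizontal axis) for the 5 members (red triangles, the same in both panels) and for the tested genes of the branchiomotor list (left, 19 genes) and of the cholinergic list (right, 18 genes). The dashed line marks equal changes. Tbx20 and Cntn2 lie near 0 or below on the horizontal axis and Phox2a at 0.55, all 3 above 3 on the vertical axis, Hoxb2 lies below the dashed line, and Chrna3 lies above it.

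Markers of other cells that use the same genes moved in the same comparisons, and their part in the members' changes was not tested. All 15 pan-neuronal genes were tested. Under SAG, Hoxb1 went with 8 rises and 5 falls (median 0.20), led by the neurofilament genes Nefm (3.58, 22.6 to 267.8 CPM, SE 0.04) and Nefl (3.17, 38.4 to 342.6 CPM, SE 0.0495) and by Syt4 (1.54, SE 0.096). Without SAG 13 were higher with Hoxb1 and 2 lower, and the sum was 1999 to 2094 CPM without and 2863 to 3040 CPM with it. In that comparison Phox2a and Chat were called higher, and Tbx20, Isl1 and Slc5a7 were not called. Within the SAG libraries the sum, much of whose rise lay in Nefl and Nefm, was higher with Hoxb1, as were Phox2a, Tbx20, Isl1 and Chat. The sum in NMPs was 343.2 to 374.5 CPM, and none of the 15 was at 0 in any group.

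Of 12 somatic motor neuron genes, 7 rose and 2 fell with Hoxb1 and SAG (median 0.37), while their sum was 574.7 to 580.4 CPM with SAG and 481 to 496.4 CPM with Hoxb1 and SAG. Slit2, among those that fell, made up the largest part of the sum and went from 307.2 to 175.8 CPM. The lower sum therefore does not describe the list as a whole. The LIM-homeodomain gene Lhx4, expressed as motor neurons are born, rose by 4.39 (1.04 to 22.0 CPM, SE 0.114), and Chodl, a motor neuron surface protein, by 1.402 (8.72 to 23.1 CPM, SE 0.0796). The somatic factor Isl2 rose by 1.55 but reached only 1.30 CPM. Without SAG 4 were higher and 5 lower, Lhx4 rising by 4.23 (SE 0.198) and Lhx3 by 3.40 to 1.05 CPM. Without Hoxb1, Isl2 averaged 0.443 CPM with SAG, and Lhx3 0.0526 CPM with SAG and 0.0952 CPM without it. Both passed the filter through groups with Hoxb1, so their calls, which are in these counts, are no support for a Hoxb1 difference. The difference of effects was called for 5 of the 12, 4 higher and 1 lower. Mnx1, the gene that most defines somatic motor neurons, averaged 0.452 to 1.31 CPM in the neural progenitor groups and was not called for Hoxb1 in either SAG state. Mnx1, Slit2 and Olig2 (30.8 CPM with Hoxb1 and SAG, 31.1 CPM with SAG) were named here after their values were seen.

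Genes of other transmitter identities mostly fell with Hoxb1 in the presence of SAG. Of 14 tested, 9 were lower and 3 higher with Hoxb1 and SAG (median -1.11), and the sum was 201.6 to 212 CPM with SAG and 101.4 to 104.1 CPM with Hoxb1 and SAG. The serotonin transporter Slc6a4 fell by 2.38 (10.7 to 2.04 CPM, SE 0.116), and the GABA genes Slc32a1 by 1.91 (22.4 to 5.93 CPM, SE 0.0783) and Gad2 by 1.82 (43.1 to 12.2 CPM, SE 0.0631). The 3 that were higher, named after their values were seen, were Slc17a7 (1.18 to 3.57 CPM), Slc6a5 (0.106 to 0.655 CPM) and Dbh (0.0905 to 0.297 CPM). Without SAG 5 were higher and 4 lower (median 0.13), among them the glycine transporter Slc6a5 (3.58, 1.09 to 12.96 CPM, SE 0.17) and Slc32a1 (1.04, SE 0.0725), both higher. The difference of the effects was lower for 7 of the 14 and higher for 3, with Slc32a1 at -2.95 (SE 0.107, edgeR adjusted p = 9.85e-25).

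Phox2a is also a gene of autonomic and noradrenergic neurons. Of 8 such markers, 7 were tested, and 3 were higher and 2 lower with Hoxb1 and SAG. Hand2, a sympathetic and heart factor, rose by 2.05 (1.45 to 6.05 CPM, SE 0.144), whereas Th, the enzyme of catecholamine synthesis, fell by 1.39 (3.30 to 1.26 CPM, SE 0.173). The sum was 67.61 to 74.06 CPM with SAG and 76.82 to 81.75 CPM with Hoxb1 and SAG. Dbh, which defines noradrenergic cells, was one of the 3 called higher (1.63, SE 0.623, edgeR adjusted p = 0.0318), at 0.0905 CPM with SAG and 0.297 CPM with Hoxb1 and SAG, with overlapping libraries, and was named after its value was seen.

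Tbx20 and Isl1 are also heart genes. Of 16 cardiac and lateral mesoderm markers 13 were tested, and 8 were higher and 1 lower with Hoxb1 and SAG (median 0.58), their sum being 36.76 to 38.23 CPM with SAG and 66.25 to 72.29 CPM with Hoxb1 and SAG. Tbx5 rose by 3.40 to 1.42 CPM (SE 0.369), Tbx1 by 3.15 to 3.50 CPM (SE 0.223) and Hand2 by 2.05 to 6.05 CPM. Tbx5, Tbx1 and Tnnt2, all among the 8, averaged 0.127, 0.394 and 0.379 CPM with SAG and no Hoxb1. Like Chat, they passed the filter through groups with Hoxb1, so their calls are no support for a Hoxb1 difference. The muscle and neuronal factor Mef2c rose by 1.86 (5.72 to 20.7 CPM, SE 0.0787) and the signal Bmp4 by 0.43 (14.1 to 18.98 CPM, SE 0.0713), while the cardiac factor Nkx2-5 was at 0.279 CPM and Gata5 at 0.0399 CPM with Hoxb1 and SAG. These last 4 genes were named after their values were seen. Without SAG 3 were higher and 3 lower. Hand1, Hand2, Th, Dbh, Slc6a2, Gata3 and Cdx2 each stand in more than 1 list.

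Isl1 is further shared with sensory, forebrain and retinal, and endodermal cells. Of 12 tested sensory neuron markers 7 were higher and 1 lower with Hoxb1 and SAG (sum 83.96 to 86.06 against 118.1 to 119.6 CPM), and 7 were higher and 2 lower without SAG (207.3 to 215.8 against 284.3 to 292.6 CPM). Pou4f2 (2.74, SE 0.288) and Eya2 (1.67, SE 0.113) rose most of these with SAG, reaching 1.69 and 8.15 CPM. Prrxl1, among the 7 higher without SAG, went from 0.354 to 1.87 CPM and passed the filter through the group with Hoxb1. Its call is no support for a Hoxb1 difference. Of 9 tested forebrain and retina markers 8 were lower and 1 higher with Hoxb1 and SAG, with sums of 345.8 to 361.3 CPM with SAG and 80.84 to 87.9 CPM with Hoxb1 and SAG. The ventral forebrain factor Nkx2-1 fell by 3.38 (100.3 to 9.57 CPM, SE 0.063). Of 5 tested endodermal markers 2 were lower and 1, Foxa2, higher, and Afp was at 0 in every library of that group. Foxa2 is also a marker of the floor plate, the ventral midline of the neural tube.

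The labelled cell types were checked against marker genes. Sox1, Sox2, Pax6 and 5 other neural progenitor genes summed to 2997 to 4865 CPM in the neural progenitor groups and 772.2 to 844.6 CPM in NMPs. T, Tbx6, Cdx2 and 7 other NMP genes summed to 1966 to 2395 CPM in NMPs and 14.16 to 81.45 CPM in neural progenitors. With Hoxb1 and SAG, 6 of the 8 neural progenitor genes were lower and none higher, Sox1 by 1.05 (SE 0.0312), whereas without SAG 4 were higher and 4 lower. The neuronal tubulin Tubb3 was at 239.8 CPM with SAG and 291.3 CPM with Hoxb1 and SAG, and at 309.6 CPM without either and 447.5 CPM with Hoxb1, so RNA of neurons was present in groups labelled as progenitors, and this gene too was named after its values were seen.

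**Figure D4:**
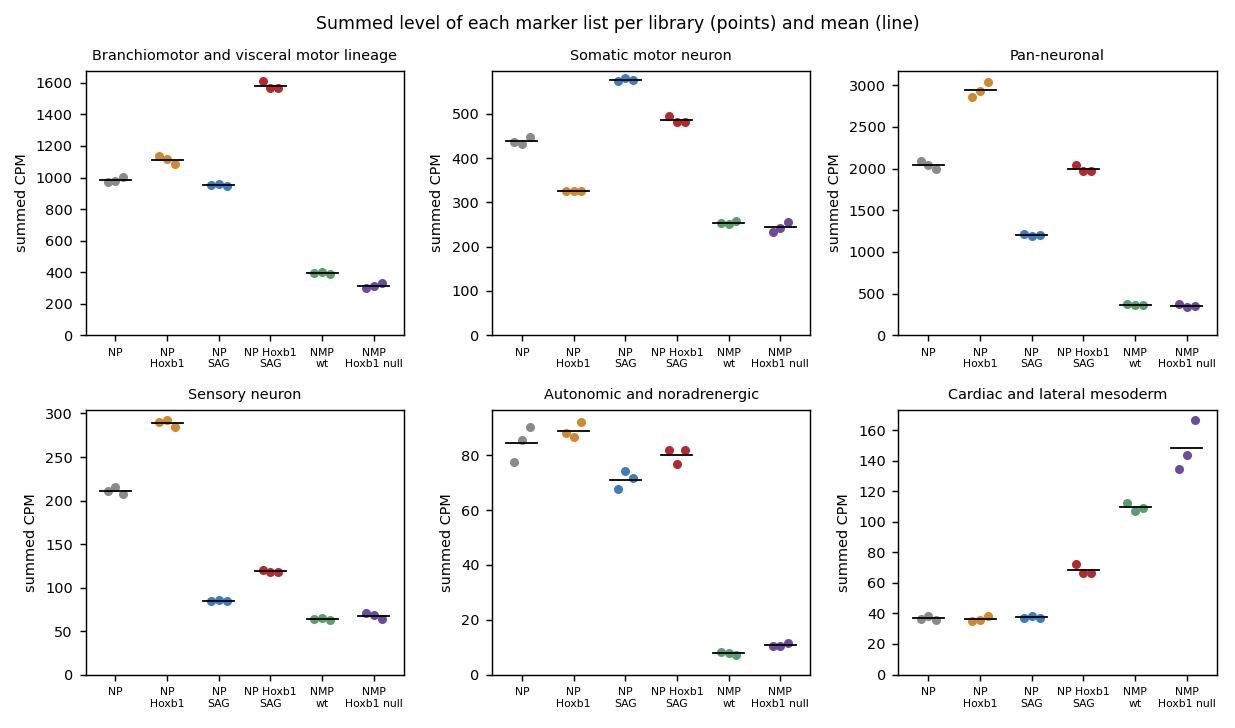
Summed level of 6 lists of marker genes in each library, in CPM on linear axes that start at 0, for the 6 groups. Points are libraries and lines are means. The branchiomotor and cardiac sums are highest among neural progenitors with Hoxb1 and SAG, the pan-neuronal sum is highest with Hoxb1 without SAG, and the somatic motor neuron sum is highest with SAG alone. In neural progenitors Slit2 makes up the largest part of the somatic motor neuron sum.

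For each member the 3 genes with the most similar profile over the 12 neural progenitor libraries were taken from 13207 genes by Pearson's r of log2 CPM, as a description. Nearest to Phox2a were the transmembrane gene Tmem132e (r = 0.989), the nuclear receptor Nr2f1 (0.987) and the synaptic cadherin-like Clstn2 (0.982). Tmem132e stood at 10.1 CPM with SAG and 29.6 CPM with Hoxb1 and SAG, so its profile had the shape of Phox2a but a smaller range. Nearest to Tbx20 were Wfikkn1 (0.993), Dcdc2a (0.990) and the tetraspanin Cd151 (0.988), with Wfikkn1 at 2.12 and 9.56 CPM in those groups.

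Nearest to Isl1 were the RNA helicase gene Ddx46 (r = 0.991), the hindbrain zinc-finger gene Egr2 (0.989) and Hoxa11os (0.987). Egr2 stood at 1.71, 1.22, 4.68 and 9.30 CPM in untreated, Hoxb1, SAG, and Hoxb1 with SAG neural progenitors. Hoxa11os is an antisense RNA, and the strand setting of the counting is not given, so its reads cannot be told apart from those of its sense partner. Nearest to Chat were Dgkk (0.985), the synuclein gene Sncg (0.984) and Gpx3 (0.984), and Sncg stood at 3.20, 16.1, 1.99 and 42.2 CPM in the same order of groups. Nearest to Slc5a7 were Snrpf (0.977), Higd1a (0.9751) and Tpd52l2 (0.974), and the spliceosome gene Snrpf stood at 13.8, 11.6, 25.3 and 24.5 CPM in that order. Of the 15 genes, 7 were also chosen when log2(CPM + 1) was used, and r ignores the size of a change.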

How the data were processed

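Per the labels' protocols, polyadenylated RNA was selected, strand-specific libraries were made and enriched in PCR, and, per the submitters' processing notes, bcl2fastq 1.8.2, featureCounts 1.4.6 and mm10 were used. The deposited values are raw read counts per Ensembl gene, not normalized by the authors, with a deposited summed exon length in bases. Not given in the sources used here are the aligner, the annotation release and the strand setting.

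The fits used edgeR 4.0.16 (R 4.3.3, limma 3.58.1), with filterByExpr by group, TMM scaling, and quasi-likelihood F-tests (glmQLFit, robust, and glmQLFTest) with Benjamini-Hochberg adjustment over all genes tested, called under 0.05. The 12 neural progenitor libraries shared 1 fit (8 residual degrees of freedom, common biological coefficient of variation 2.91%) and the 6 NMP libraries another (4 degrees, 3.815%). TMM factors over 18 libraries were 0.9162 to 1.066. The SE is the log2 change over the square root of F. DESeq2 1.42.0 was an alternative. Scripts were tested on simulated data. Symbols matched 35449 genes, and 1775 had none. Replicates differed beyond counting noise (chi-square per gene 1.327 to 4.766). Each list gave up to 3 called genes per comparison by size of change, with 1 CPM or more in 1 of its groups, and each member 3 nearest profiles. Some listed genes are not reported here and entered no list count or sum. Genes and lists were chosen with earlier results of these data known. Intervals cover the spread between these libraries.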

Additional observations from a re-analysis of the deposited data

Results flagged for a closer look

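The Hoxb1 effect on 3 of the genes differed between neural progenitors with and without SAG by the test of the difference itself in edgeR. The difference was 3.25 on the log2 scale for Phox2a, 4.04 for Tbx20 and 1.39 for Isl1. It was called in all 17 alternatives for each of them, with values of 3.13 to 3.38 for Phox2a, 3.06 to 4.40 for Tbx20 and 1.24 to 1.53 for Isl1. Tbx20 passed the filter only through the groups with SAG and held 3 to 14 counts per library without SAG or Hoxb1. Its call is therefore no support for a difference by SAG, and the size of its difference is poorly measured. The libraries with and without SAG carry different ranges of library number, and SAG and library set cannot be told apart. Hoxb1 itself averaged 323 CPM with DOX alone and 591 CPM with DOX and SAG. The compared effects thus also differ in the level of Hoxb1, whose part was not tested.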

How the results depend on the processing

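Alternatives were DESeq2, upper-quartile scaling, other filters, a replicate block, the 2 groups alone, all 18 libraries in 1 fit for NMPs, and leaving out each library. Of 371 values of single members, 346 kept direction and call, 13 gained a call, 4 lost it (Slc5a7 in NMPs) and 8 reversed, all of the latter uncalled in either direction and with 1 library left out. Over all alternatives, their log2 changes were -0.30 to 1.04 for Tbx20 (Hoxb1 without SAG) and -0.029 to 0.23 for Slc5a7 (Hoxb1 with SAG). They were -0.24 to 0.0046 for Phox2a and -0.58 to 0.21 for Chat (SAG without Hoxb1), and -0.15 to 0.029 for Isl1 (NMPs). The number of members called in NMPs was 1, against 0 with DESeq2, 2 without a filter, 2 with the replicate block, 3 with all 18 libraries in 1 fit and 0 to 2 with 1 library left out, and the cause was not tested. For the other 5 comparisons it stayed within 1.5 times.

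Replicate numbers paired the libraries in part, and only for Hoxb1 with SAG. There 2 of 3 same-numbered pairs correlated above 0.1 (0.155, 0.131 and 0.0017), and the highest correlation of other pairs was 0.0335. In the other comparisons checked, no same-numbered pair correlated above 0.1. With the replicate block, genes called were 7274 for Hoxb1 with SAG, against 7045 without it, and 7613 against 7499 for Hoxb1 without SAG. With the 2 groups alone, Tbx20 (Hoxb1 without SAG) and Chat (SAG without Hoxb1) did not pass the filter and gave no value. Chat and Tbx20 without Hoxb1 rest on 1 to 14 counts per library without SAG, which limits their folds.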
